A study of Homo sapiens with 6 samples.

Results

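The genes described here encode angiogenic growth factors and hypoxia-inducible factors, namely the ligands VEGFA, VEGFB and VEGFC, the neuropilin co-receptors NRP1 and NRP2, the secreted factors ADM and ANGPTL4, and the transcription factor subunits HIF1A, EPAS1 and ARNT. They were taken by name from the deposited table of 58735 genes, where each of the 10 names matched 1 gene. A mean of at least 1 FPKM (fragment counts scaled by gene length and by a library total) over the 6 libraries was required for a test, and 9 of the 10 reached it, as did 12448 genes in all. NRP2 stayed below it and is given by its values.

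The series holds 6 bulk RNA-seq libraries labelled Hep3B, a line from a human liver carcinoma. Of these, 3 carried a control short hairpin RNA (sh-NC) and 3 a short hairpin RNA against HYOU1 (sh-HYOU1), and the comparison asks how the transcriptome differs when HYOU1 is lowered. The sources used here do not state how many hairpin sequences or clones were used, the oxygen level of the cultures, or whether the replicates were separate cultures. Spread among replicates, on which the p-values rest, may thus be technical.

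As background, cells sense oxygen through hydroxylases that mark HIF1A and EPAS1 protein for destruction while oxygen is present. When oxygen falls, the stabilised subunits pair with ARNT and switch on genes for blood vessel growth, glycolysis and acid handling, VEGFA, ADM and ANGPTL4 among them. HYOU1 encodes a chaperone of the endoplasmic reticulum that is itself induced by hypoxia, and VEGFA, VEGFC and ADM are secreted through that compartment. HIF1A activity is set largely at the protein level, which RNA does not report.

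The HYOU1 transcript itself gave 37.6, 58.2 and 59.5 FPKM in the control libraries and 2.35, 2.32 and 2.37 FPKM in those with the HYOU1 shRNA, so each library matched its label. Between 16893091 and 18233240 fragments per library could be recovered from the deposited values. The label Hep3B was not borne out by hepatocyte and hepatoma markers. Of 20 such genes, CPS1 and HNF4A passed the filter, and ALB, APOA2, APOB, TTR and ASGR2 were listed at 0 in every library. Summed over this list, levels ran from 179 to 227 FPKM in the control libraries and from 49.7 to 51.9 FPKM in the HYOU1 shRNA libraries, most of it from CPS1. Summed levels of 12 endothelial markers were 28.0 to 45.5 and 38.3 to 40.3 FPKM, nearly all from ESAM, with KDR and EMCN at 0. Those of 12 fibroblast and stellate cell markers were 12.1 to 13.9 and 15.9 to 16.8 FPKM with COL1A2 at 0. In that list DES and COL1A1 rose by 2.00 and 1.09 on the log2 scale and DCN fell by 1.35 (limma, adjusted p = 0.00458, 0.0159 and 0.00708), with a median of -0.16 over the 5 tested. Summed levels were, for 10 biliary markers, 84.1 to 95.0 and 98.6 to 108 FPKM and, for 13 immune markers, at most 0.851 FPKM. Their part in the results was not tested. Control replicate 1 stood apart by GC content. Against the mean of control replicates 2 and 3, its median log2 difference was 0.76 in the tenth of tested genes with the lowest GC content and -1.0 in the tenth with the highest, so results that rest on it are given with and without it.

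With HYOU1 shRNA and all 6 libraries, ADM and NRP1 fell to 50.6% and 49.7% of their control level on the log2(FPKM + 0.1) scale. Their log2 fold changes lay further apart without control replicate 1, at -1.05 and -0.91, and after the GC correction described below, at -1.23 and -0.91. With all 6 libraries, none of the other 7 tested genes passed the threshold (limma, Benjamini-Hochberg adjusted p under 0.05 over all tested genes). VEGFA was higher in every HYOU1 shRNA library than in any control library without passing. The 2 calls among 9 tested genes stand beside 12.3% called among all 12448. Without control replicate 1 the calls were 4 of 9, ADM and NRP1 lower and VEGFA and VEGFC higher, beside 44.3% of all tested genes, 24.6% higher and 19.7% lower. After a correction that removes each library's trend with GC content they were also 4 of 9, ADM, NRP1 and VEGFB lower and VEGFA higher, beside 40.6% of all tested genes, 20.4% higher and 20.2% lower. Groups did not overlap in 4 of the 9, ADM and NRP1 lower and VEGFA and EPAS1 higher, beside 44.4% of tested genes, 23.8% higher and 20.6% lower. In a bulk sample, fewer cells of a type and less RNA per cell cannot be told apart.

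**Figure D1:**
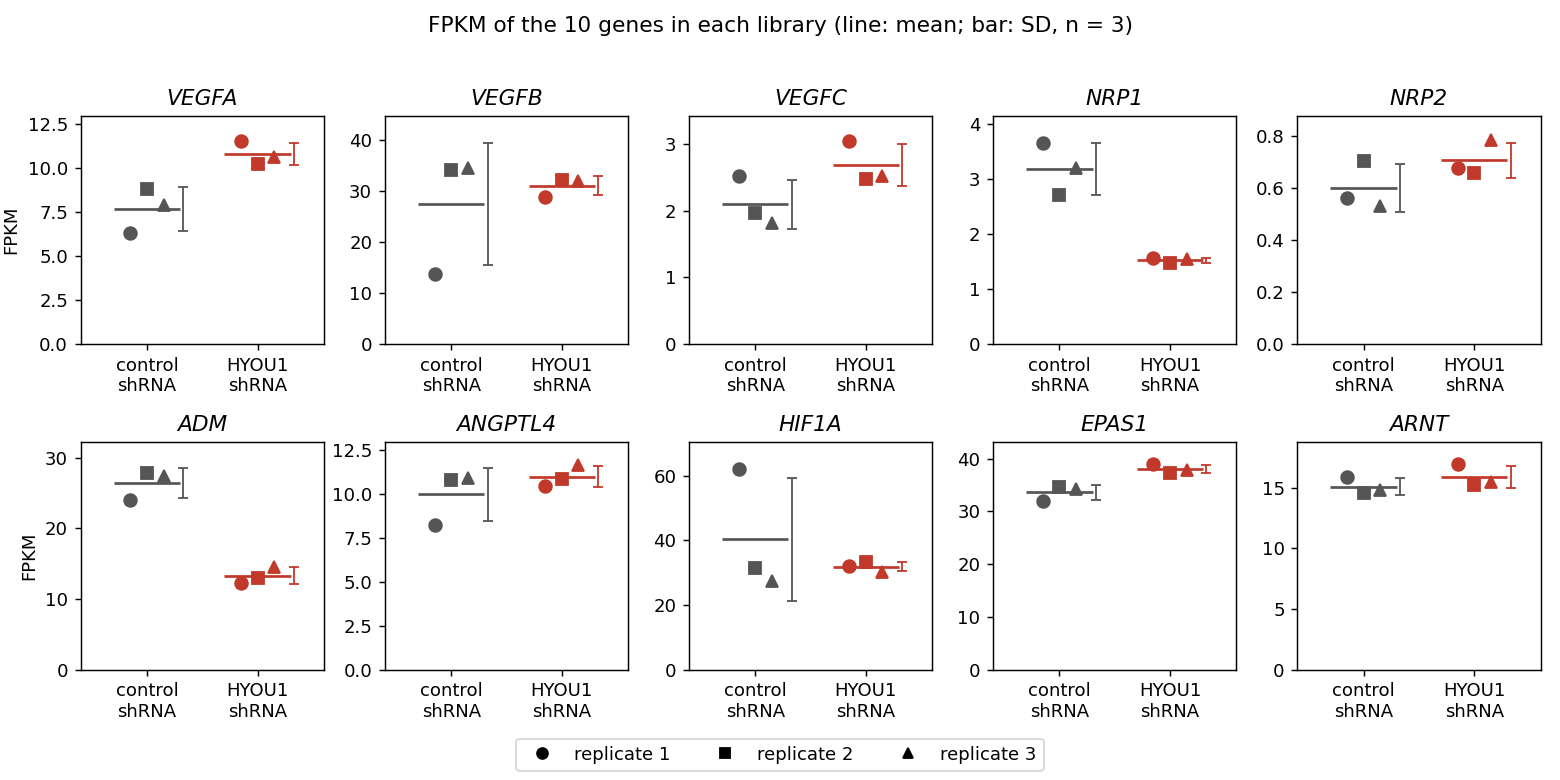
FPKM (vertical axis of each panel, starting at 0) of the 10 genes in the 3 control (grey) and 3 HYOU1 shRNA (red) libraries; lines are means and bars SD. ADM and NRP1 separate downward and VEGFA upward, while HIF1A and VEGFB have 1 control library, replicate 1, far from the others.

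The ligand VEGFA, the main growth factor for blood vessel endothelium (ENSG00000112715, chr6:43770184-43786487 on GRCh38), gave 6.33, 8.85 and 7.91 FPKM in control libraries 1, 2 and 3. In HYOU1 shRNA replicates 1, 2 and 3 it was at 11.5, 10.3 and 10.7 FPKM. The groups did not overlap, and the lowest control library was replicate 1. Control libraries averaged 7.69 ± 1.27 and HYOU1 shRNA libraries 10.8 ± 0.649 FPKM (SD, n = 3 each). On the log2(FPKM + 0.1) scale the fold change was 0.50 with a 95% interval of 0.13 to 0.87 and did not pass (limma, adjusted p = 0.0826). It passed without control replicate 1, at 0.37 (limma, adjusted p = 0.00952), and after the GC correction, also at 0.37 (limma, adjusted p = 0.0143).

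VEGFB, a relative of VEGFA that binds the receptor FLT1 (ENSG00000173511, chr11:64234538-64238793), was at 13.7, 34.1 and 34.6 FPKM in the control libraries and at 28.9, 32.2 and 32.0 FPKM in the HYOU1 shRNA libraries. Control replicates 2 and 3 lay above every HYOU1 shRNA library, and control replicate 1 far below. The log2 fold change was 0.29 with a 95% interval of -0.57 to 1.15 (limma, adjusted p = 0.603). Its sign turned to -0.15 without control replicate 1 (limma, adjusted p = 0.115) and to -0.23 after the GC correction, where it passed (limma, adjusted p = 0.0430). At 66.7% GC, VEGFB has the most GC-rich longest transcript of the set.

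VEGFC, the growth factor of lymphatic endothelium (ENSG00000150630, chr4:176683538-176792727), was the weakest ligand, at 2.52, 1.96 and 1.82 FPKM in the control libraries and 3.05, 2.47 and 2.53 FPKM in the HYOU1 shRNA libraries. Between 79 and 132 fragments per library stood behind these values, the fewest of any of the 10 genes. Control replicate 1 lay above HYOU1 shRNA replicate 2 and just below replicate 3, so the groups overlapped. The log2 fold change was 0.35 with a 95% interval of -0.089 to 0.78 (limma, adjusted p = 0.242). Without control replicate 1 it was 0.48 and passed (limma, adjusted p = 0.0242), and after the GC correction it was 0.30 and did not (limma, adjusted p = 0.244).

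Of the other VEGF ligands and the VEGF receptor kinases, PGF, VEGFD, FLT1, KDR and FLT4, 0 of 5 passed the filter. PGF, a ligand of FLT1, was at 0.540, 0.949 and 0.916 FPKM in the control libraries and 1.07 to 1.29 FPKM in the HYOU1 shRNA libraries, from 55 to 135 fragments. Its groups did not overlap, and its level lay just under the filter, so it has no test. FLT1 and KDR, the receptors through which VEGFA acts on endothelium, were listed at 0 in every library. A gene of 1 kb would have needed 0.160 to 0.176 FPKM to reach 3 fragments, and FLT1 and KDR, of 12567 and 6563 bases, less. That limit covers counting error only.

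**Figure D2:**
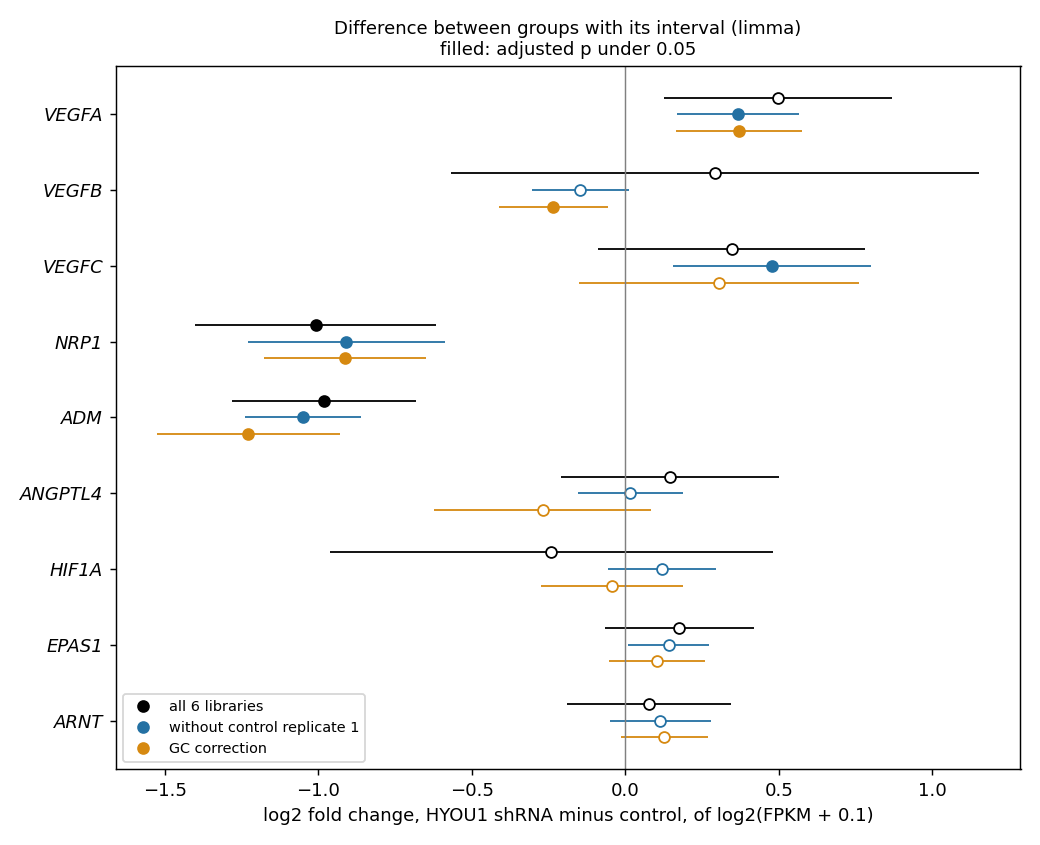
Log2 fold change (horizontal axis, HYOU1 shRNA minus control) of the 9 tested genes with its 95% interval from limma, with all 6 libraries (black), without control replicate 1 (blue) and after the GC correction (orange); filled points have an adjusted p under 0.05. ADM and NRP1 are filled in each of these fits, VEGFA in the latter 2, and VEGFB, HIF1A and ANGPTL4 lie on different sides of 0 depending on the fit.

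Neuropilins bind VEGF and class 3 semaphorins and pass signals through VEGF receptors or plexins. NRP1 (ENSG00000099250, chr10:33177492-33336262) was at 3.66, 2.71 and 3.20 FPKM in the control libraries and at 1.57, 1.47 and 1.54 FPKM in the HYOU1 shRNA libraries. Every HYOU1 shRNA library lay below every control library, and the HYOU1 shRNA libraries differed from each other by less than the control libraries did. NRP1 fell by 1.01 on the log2 scale (SE 0.16; limma, adjusted p = 0.0156), or 2.01-fold. It was at -0.91 without control replicate 1 (limma, adjusted p = 0.00131) and, after the GC correction, again at -0.91 (limma, adjusted p = 0.00119). It did not pass without any 1 of HYOU1 shRNA replicates 1, 2 or 3 (limma, adjusted p = 0.0868, 0.0914 and 0.0918), with the fold change between -1.03 and -0.98. Over all tested genes those fits called 126, 85 and 49, against 1526 with all 6 libraries.

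NRP2 (ENSG00000118257, chr2:205681990-205798133) was at 0.561, 0.703 and 0.529 FPKM in the control libraries and 0.675, 0.658 and 0.782 FPKM in the HYOU1 shRNA libraries, from 132 to 190 fragments per library. The groups overlapped. With a filter of 0.1 FPKM, which lets NRP2 in, its log2 fold change was 0.21 (limma, adjusted p = 0.605). NRP1 was 3.86 to 6.52 times as high as NRP2 in the control libraries and 1.97 to 2.32 times as high in the HYOU1 shRNA libraries, both per kilobase of deposited gene length. These ranges did not overlap.

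Among 12 class 3 semaphorins and plexins, the ligands and signalling partners of the neuropilins, 8 were tested, 0 rose, 1 fell and 7 did not pass, beside 6.6% of all tested genes rising and 5.66% falling. The median log2 fold change of the 8 was 0.27, beside 0.035 over all tested genes, and came to 0.031 without control replicate 1 and 0.011 with the GC correction. The member that fell was SEMA3A, a repulsive guidance cue that binds NRP1, with means of 1.68 ± 0.684 and 0.464 ± 0.0425 FPKM (SD, n = 3 each) and a difference of -1.59 on the log2 scale (limma, adjusted p = 0.0324). This call was lost with no filter and with the replicate numbers as a block in the fit. It was also lost without control replicate 2, control replicate 3 or any 1 HYOU1 shRNA library. Without HYOU1 shRNA replicate 1, 2 or 3, 126, 85 and 49 of all tested genes were called, against 1526 with all 6 libraries. Leaving out control replicate 1 gave 3 rises and 1 fall, in a fit that called 24.6% of all tested genes higher and 19.7% lower, and the GC correction 1 rise and 2 falls, beside 20.4% and 20.2%.

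ADM encodes the precursor of adrenomedullin, a vasodilating peptide hormone (ENSG00000148926, chr11:10304680-10307397). The control libraries 1, 2 and 3 held 24.0, 27.8 and 27.5 FPKM. HYOU1 shRNA libraries 1, 2 and 3 held 12.3, 13.0 and 14.6 FPKM. The groups were far apart relative to the spread within each, and control replicate 1 was the lowest of the control libraries. ADM fell by 0.98 on the log2 scale (SE 0.13; limma, adjusted p = 0.00924), or 1.98-fold. Without control replicate 1 the fold change was -1.05 (limma, adjusted p = 5.82e-05) and after the GC correction -1.23 (limma, adjusted p = 0.00065). It did not pass without HYOU1 shRNA replicate 1, 2 or 3 (limma, adjusted p = 0.0736, 0.0753 and 0.0571), with the fold change between -1.05 and -0.93. Over all tested genes those fits called 126, 85 and 49, against 1526 with all 6 libraries.

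The promoters of ADM and of ANGPTL4 are shown because both genes are known targets of hypoxia-inducible factors, of which ADM fell and ANGPTL4 did not pass the test. The difference between these responses was not tested. The sequences run 5′ to 3′ on the plus strand from 250 bases before to 50 bases after the RefSeq start on GRCh38.p14, at chr11:10304823-10305122 for ADM and chr19:8363905-8364204 for ANGPTL4. Capitals mark ACGTG or GCGTG on either strand, the core letters that hypoxia-inducible factors are known to bind.
ADM: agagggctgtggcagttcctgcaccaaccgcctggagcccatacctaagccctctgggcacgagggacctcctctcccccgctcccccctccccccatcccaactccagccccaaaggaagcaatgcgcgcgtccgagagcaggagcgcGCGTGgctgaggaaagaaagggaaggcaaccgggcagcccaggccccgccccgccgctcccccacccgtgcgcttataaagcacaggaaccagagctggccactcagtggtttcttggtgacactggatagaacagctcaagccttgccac
ANGPTL4: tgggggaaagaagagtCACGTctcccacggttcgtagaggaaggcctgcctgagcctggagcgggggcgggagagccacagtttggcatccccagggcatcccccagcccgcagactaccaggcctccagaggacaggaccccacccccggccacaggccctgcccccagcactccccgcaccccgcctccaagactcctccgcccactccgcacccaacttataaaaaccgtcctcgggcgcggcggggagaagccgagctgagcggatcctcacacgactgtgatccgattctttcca
The match in ADM is GCGTG on the plus strand at -101 from the start, and that in ANGPTL4 is ACGTG on the minus strand at -234, written as its reverse complement. Of the 10 genes, 8 had an entry in the RefSeq promoter table, HIF1A with an entry for each of 2 starts, and VEGFA and NRP1 had none. Matches were found in 6 of these 9 promoters, those of ADM, ANGPTL4, EPAS1, VEGFB, VEGFC and the upstream start of HIF1A. Among all 35116 promoters of the table, 48.4% held ACGTG or GCGTG, which are common letters, and ACGTG is also part of the E-box CACGTG, present in 7.26%. A match describes these letters and no binding.

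Of 12 other genes of the adrenomedullin family, its receptors and its processing, 3 were tested. In limma 0 of the 3 rose or fell, beside 12.3% of all tested genes called, with 2 at an unadjusted p under 0.05 and 0 called by voom. Their median log2 fold change was 0.56, beside 0.035 over all tested genes. PAM, the enzyme that amidates adrenomedullin and other peptides, was at 27.1 ± 2.81 and 23.9 ± 0.446 FPKM (SD, n = 3 each) in the control and HYOU1 shRNA groups (limma, adjusted p = 0.351). ACKR3, a scavenging receptor that binds adrenomedullin, was at 7.84 ± 1.01 and 11.6 ± 1.68 FPKM (SD, n = 3 each), differing by 0.56 on the log2 scale (limma, adjusted p = 0.0677). It passed without control replicate 1, at 0.48 (limma, adjusted p = 0.0185), and after the GC correction, at 0.56 (limma, adjusted p = 0.0117). ADM2, which encodes the related peptide intermedin and is named after its values were seen, was at 0.671, 1.56 and 1.58 FPKM in the control libraries and 2.31, 2.33 and 2.54 FPKM in the HYOU1 shRNA libraries, without overlap (limma, adjusted p = 0.103). Its log2 difference of 0.95 became 0.58 without control replicate 1 and 0.54 with the GC correction, passing in both (limma, adjusted p = 0.00806 and 0.0135). CALCRL, the adrenomedullin receptor, was at 0.0177 FPKM or less in every library, and its partners RAMP1, RAMP2 and RAMP3 were listed at 0.

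ANGPTL4 is a secreted inhibitor of lipoprotein lipase that responds to hypoxia and to PPAR transcription factors (ENSG00000167772, chr19:8363289-8374373). It was at 8.26, 10.8 and 10.9 FPKM in the control libraries and 10.5, 10.9 and 11.6 FPKM in the HYOU1 shRNA libraries. Control replicate 1 was the lowest value, and the other 5 libraries lay close together. The log2 fold change was 0.15 with a 95% interval of -0.21 to 0.50 (limma, adjusted p = 0.530). It was 0.015 without control replicate 1 (limma, adjusted p = 0.884) and -0.27 after the GC correction (limma, adjusted p = 0.190).

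Of 15 other angiopoietins, angiopoietin-like genes and partners, 2 were tested, 0 rose and 1 fell, beside 6.6% of all tested genes rising and 5.66% falling. LPL, the lipoprotein lipase that ANGPTL4 inhibits, fell by 0.67 on the log2 scale (limma, adjusted p = 0.0307), its means being 45.2 ± 6.88 and 28.1 ± 1.73 FPKM (SD, n = 3 each). LPL passed without control replicate 1, at -0.55 (limma, adjusted p = 0.000485), and after the GC correction, at -0.56 (limma, adjusted p = 0.000522). It did not pass with no filter, with the replicate numbers as a block in the fit, without control replicate 2 or without any 1 HYOU1 shRNA library. The other tested gene was LMF1, at 1.24 and 1.32 FPKM, so the median over the pair was -0.27. Among 24 PPAR genes and targets, 14 were tested, 3 rose, 4 fell and 7 did not pass, beside 6.6% of all tested genes rising and 5.66% falling. Their median was -0.11, beside 0.035 over all tested genes. Without control replicate 1, as with the GC correction, 4 rose and 6 fell, with medians of -0.19 and -0.17. Those fits called 24.6% and 20.4% of all tested genes higher and 19.7% and 20.2% lower. Without any 1 HYOU1 shRNA library 1 of the 14 was called. Leaving out replicate 1, 2 or 3 of that group gave 126, 85 and 49 calls over all tested genes, against 1526 with all 6 libraries. PDK4, a kinase that inhibits pyruvate dehydrogenase, was at -2.46, PPARA at -1.22 and SLC25A20, the mitochondrial carnitine carrier, at -0.97 on the log2 scale, while CREB3L3, a transcription factor of lipid metabolism, was at 1.83 (limma, adjusted p = 0.00446, 0.0105, 0.0118 and 0.0104). Known targets of the same receptors thus stood on both sides of 0, with ANGPTL4 between them.

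HIF1A, the widely expressed oxygen-regulated subunit (ENSG00000100644, chr14:61695513-61748259), was at 62.0, 31.3 and 27.5 FPKM in the control libraries and 32.2, 33.2 and 30.2 FPKM in the HYOU1 shRNA libraries. Control replicate 1 was 2.11 times as high as the mean of control replicates 2 and 3, and the other 5 libraries lay together. The log2 fold change was -0.24 with a 95% interval of -0.96 to 0.48 (limma, adjusted p = 0.609). It turned to 0.12 without control replicate 1 (limma, adjusted p = 0.242) and was -0.044 after the GC correction (limma, adjusted p = 0.748). Without control replicate 1 its 95% interval ran from -0.058 to 0.29.

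**Figure D3:**
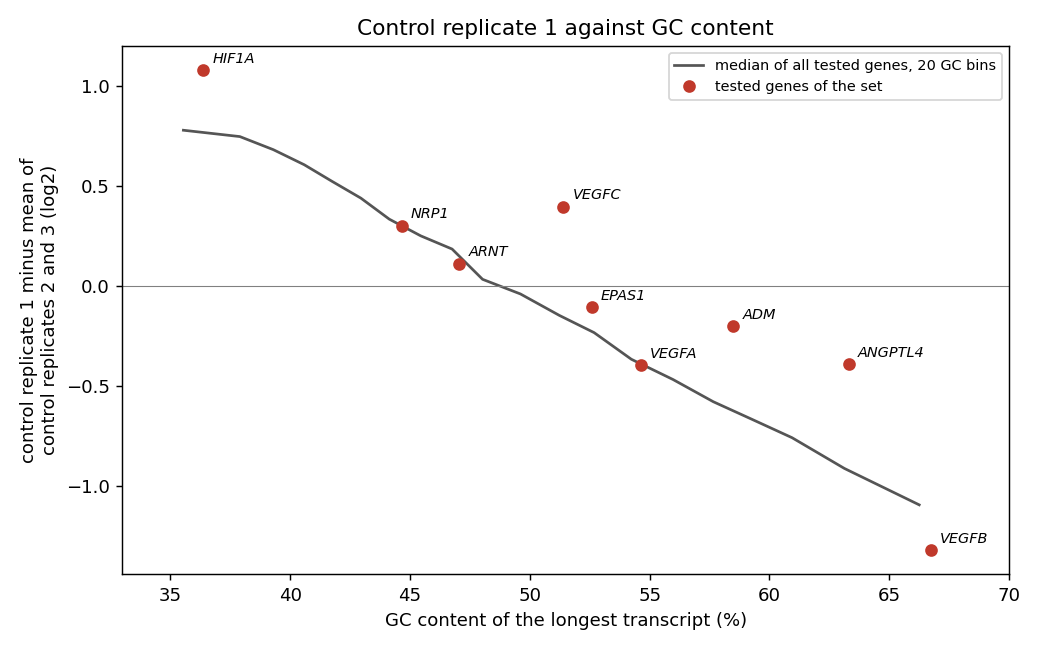
Control replicate 1 minus the mean of control replicates 2 and 3 (vertical axis, log2) against the GC content of the longest transcript (horizontal axis, %) for the 9 tested genes (red) and the median of all tested genes in 20 bins of GC content (line). HIF1A at 36.4% GC and VEGFB at 66.7% GC lie at the ends of the falling line, at 1.08 and -1.32.

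The deviation of control replicate 1 ran from 1.08 for HIF1A, the most AT-rich of the 9, to -1.32 for VEGFB. After the GC correction these became 0.33 and -0.18. NRP1, VEGFA and ARNT moved from 0.30, -0.40 and 0.11 to 0.014, 0.0039 and -0.0035. ADM, ANGPTL4, VEGFC and EPAS1 deviated by more after the correction, at 0.44, 0.54, 0.58 and 0.16, than before, at -0.20, -0.39, 0.40 and -0.10. In control replicate 1 these 4 genes lay above the trend that other genes of like GC content followed.

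EPAS1, the alternative oxygen-regulated subunit (ENSG00000116016, chr2:46293667-46386703), was at 32.1, 34.7 and 34.3 FPKM in the control libraries and 38.9, 37.3 and 37.9 FPKM in the HYOU1 shRNA libraries. The groups did not overlap, but the difference was small. Its log2 fold change was 0.18 with a 95% interval of -0.068 to 0.42 (limma, adjusted p = 0.280), and 0.14 without control replicate 1 (limma, adjusted p = 0.0770). It passed only with the GC correction and control replicate 1 left out together, at 0.15 (limma, adjusted p = 0.0304), in a fit that called 48.6% of all tested genes. ARNT, the constitutive partner of both (ENSG00000143437, chr1:150809705-150876768), was at 15.9, 14.6 and 14.8 FPKM in the control libraries and 17.0, 15.3 and 15.5 FPKM in the HYOU1 shRNA libraries, with overlap. Its log2 fold change was 0.076 with a 95% interval of -0.19 to 0.34 (limma, adjusted p = 0.665). HIF1A was 0.797 to 0.890 times as high as EPAS1 in the HYOU1 shRNA libraries and 0.802 to 1.93 times as high in the control libraries, with the value above 1 in control replicate 1.

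Of 17 other HIF subunits, hydroxylases and coactivators, 15 were tested, 1 rose, 2 fell and 12 did not pass, beside 6.6% of all tested genes rising and 5.66% falling. The median log2 fold change was -0.0091, beside 0.035 over all tested genes. EP300 and CREBBP, the paralogous acetyltransferases that hypoxia-inducible factors recruit, fell by 0.82 and 0.68 on the log2 scale (limma, adjusted p = 0.0270 and 0.0325). CITED2, which competes with these factors for the same coactivators and is itself induced by them, rose by 0.78 on the log2 scale (limma, adjusted p = 0.0106), its means being 17.2 ± 1.08 and 29.6 ± 0.298 FPKM (SD, n = 3 each). The hydroxylases EGLN1, EGLN3 and HIF1AN differed by -0.28, -0.46 and 0.42 on the log2 scale and VHL, which targets hydroxylated subunits for destruction, by 0.16, and none of these 4 passed. EGLN3 passed without control replicate 1, at -0.40 (limma, adjusted p = 0.0157), and with the GC correction, at -0.46 (limma, adjusted p = 0.0148), as did HIF1AN, at 0.36 and 0.47 (limma, adjusted p = 0.0112 and 0.0139). Leaving out control replicate 1 gave 4 rises and 3 falls in this list, beside 24.6% and 19.7% of all tested genes. The GC correction gave 4 rises and 4 falls, beside 20.4% and 20.2%. With no filter, with the replicate numbers as a block in the fit or without control replicate 2 the falls were 0. Without any 1 HYOU1 shRNA library nothing in the list was called. Fits without HYOU1 shRNA replicate 1, 2 or 3 called 126, 85 and 49 of all tested genes, against 1526 with all 6 libraries.

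Of 44 listed targets of hypoxia-inducible factors outside the 10 genes, 40 were tested, 3 rose, 3 fell and 34 did not pass, near the 6.6% of all tested genes that rose and 5.66% that fell, with a median log2 fold change of 0.018, beside 0.035 over all tested genes. TFRC, the transferrin receptor, fell by 1.71 on the log2 scale (limma, adjusted p = 0.00489), PLOD2, a collagen lysyl hydroxylase, by 1.15 (limma, adjusted p = 0.0248), and CA12, a membrane carbonic anhydrase, by 0.80 (limma, adjusted p = 0.0137). Among those that rose were the glycolytic genes HK1 and PFKFB3, named after their values were seen, with log2 fold changes of 0.60 and 0.56 (limma, adjusted p = 0.0440 for each). The rises came to 1 with a filter of 0.1 FPKM, with no filter or with no variance trend. They also came to 1 with the replicate numbers as a block in the fit and without control replicate 2 or 3. Voom gave 5 rises and 3 falls, in a fit with 985 rises and 821 falls over all tested genes. The falls came to 2 with no filter and to 1 without control replicate 2. The glucose transporter SLC2A1 and the glycolytic genes PFKFB4 and LDHA, also named after their values were seen, were at -0.42, -0.38 and -0.36 without passing, and at -0.61, -0.61 and -0.19 without control replicate 1, where they passed (limma, adjusted p = 0.000503, 0.000329 and 0.0403). CA9, a carbonic anhydrase widely used as a marker of hypoxia-inducible factor activity, was at 23.4, 51.2 and 53.4 FPKM in the control libraries and 38.5, 38.1 and 44.1 FPKM in the HYOU1 shRNA libraries, with control replicate 1 again apart, and is also named after its values were seen. Its log2 fold change was 0.0048 (limma, adjusted p = 0.994), and -0.38 without control replicate 1, where it passed (limma, adjusted p = 0.00488). With the GC correction it was -0.30 and did not pass (limma, adjusted p = 0.0883). Leaving out control replicate 1 gave 10 rises and 9 falls among the 40, beside 24.6% and 19.7% over all tested genes, and the GC correction 10 rises and 8 falls, beside 20.4% and 20.2%. Without any 1 HYOU1 shRNA library 0 or 1 of the 40 were called. The drop was not limited to this list. With HYOU1 shRNA replicate 1, 2 or 3 left out, 126, 85 and 49 of all tested genes were called, against 1526 with all 6 libraries.

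**Figure D4:**
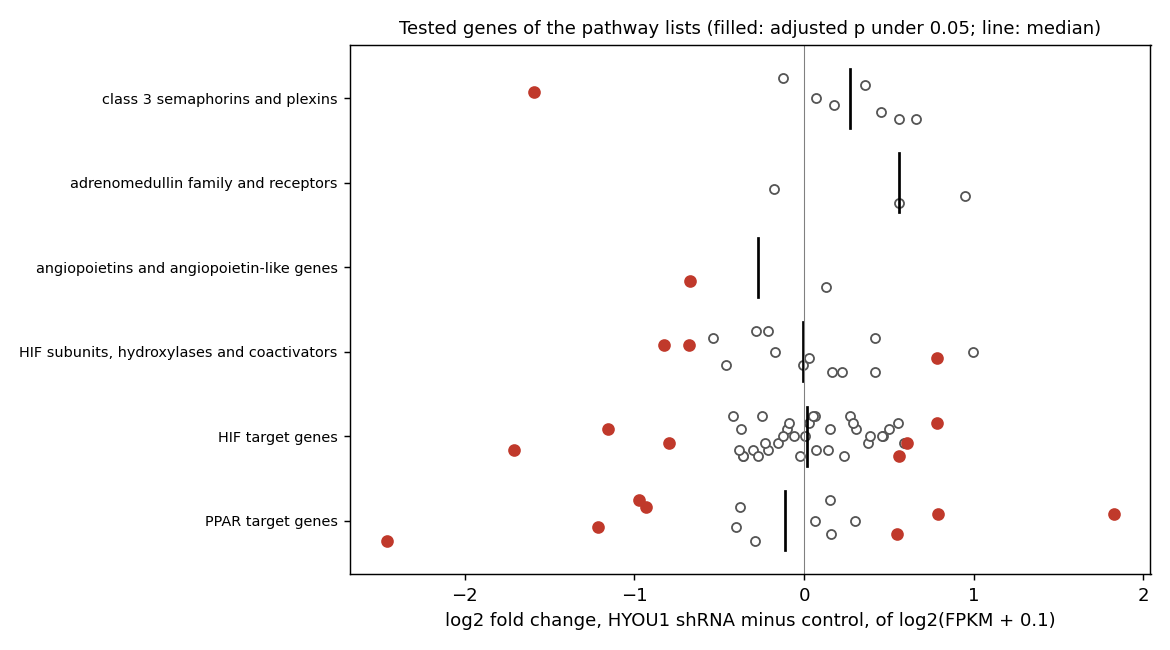
Log2 fold change (horizontal axis, HYOU1 shRNA minus control) of each tested gene in the pathway lists (rows); filled points have an adjusted p under 0.05 and lines are medians. HIF targets show 3 filled points on each side of 0 and a median of 0.018.

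The order of the 10 genes by level depends on the gene length used. The deposited length counts every annotated exon of a gene, which for VEGFA comes to 14431 bases, against 3535 bases in its longest protein-coding transcript. Per deposited length, the control means ran in the order HIF1A, EPAS1, VEGFB, ADM, ARNT, ANGPTL4, VEGFA, NRP1, VEGFC and NRP2, from 40.2 to 0.598 FPKM. The ranges over libraries overlapped between neighbours from HIF1A through ADM and between ANGPTL4 and VEGFA. In the HYOU1 shRNA libraries EPAS1 came first and ADM stood below ARNT, without overlap in either place.

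Per length of the longest protein-coding transcript, VEGFA was at 31.4 ± 5.19 in the control and 44.2 ± 2.65 on the FPKM scale in the HYOU1 shRNA libraries (SD, n = 3 each). VEGFB stood at 30.7 ± 13.4 and 34.7 ± 2.08 on that scale. In the HYOU1 shRNA libraries VEGFA then ranked behind EPAS1 and level with HIF1A, above every value of VEGFB. The ratio of VEGFA to ADM, on that scale, was 0.749 to 0.904 in the control libraries and 2.07 to 2.65 in the HYOU1 shRNA libraries. The order of these 2 transcripts was thus reversed between the groups per coding transcript, but not per deposited length, where the ratio was 0.264 to 0.319 and 0.731 to 0.935. Which VEGFA transcripts the cells make was not tested, and fold changes within a gene do not depend on the length.

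**Figure D5:**
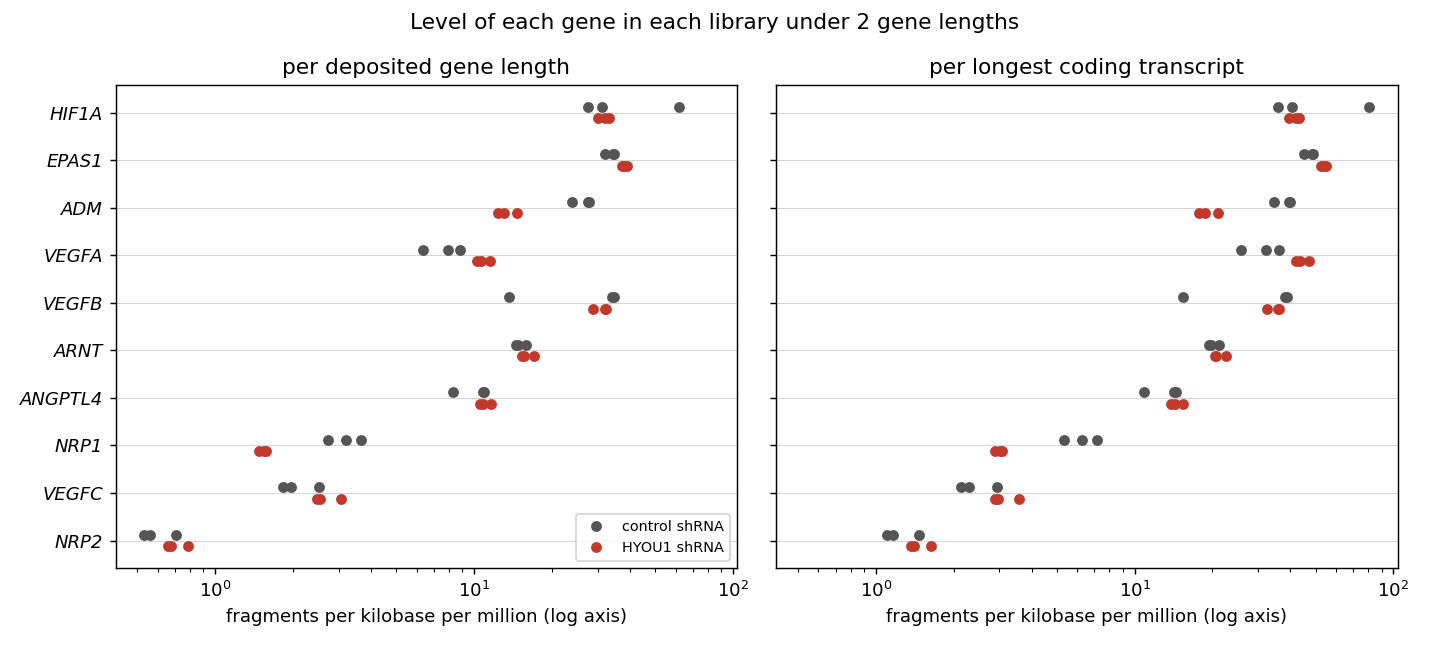
Level of each of the 10 genes in each control (grey) and HYOU1 shRNA (red) library, on the FPKM scale and a log axis, per deposited gene length (left) and per longest protein-coding transcript (right). VEGFA moves from the lower part of the order, with control libraries at 6.33 to 8.85, to its upper part, at 25.8 to 36.1.

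NRP1 had the largest change of the called genes with all 6 libraries, at -1.01 beside -0.98 for ADM, an order that turned without control replicate 1, at -0.91 beside -1.05, and with the GC correction, at -0.91 beside -1.23. It was compared with the 10643 other tested protein-coding genes by the Euclidean distance between log2 values centred on each gene's mean over the 6 libraries. The nearest were CLASP1, a microtubule-binding protein, at 0.131, ANKFY1, a protein of endosomes, at 0.138, and FGF12, of the fibroblast growth factor family, at 0.157, beside a median distance of 1.41. Their log2 fold changes were -1.08, -1.01 and -1.04, and like NRP1 each was highest in control replicate 1. Both traits follow from the choice of genes by distance over the same 6 libraries. Other genes whose exons overlap those of the 10 on the opposite strand were few. RAB11B-AS1, which shares 1 base with ANGPTL4, reached 1.71 FPKM, and those overlapping HIF1A, VEGFA, NRP1 and NRP2 did not exceed 0.171 FPKM in any library.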

How the data were processed

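RNA was sequenced from 6 libraries, 3 per group by their titles. The authors deposited FPKM values, and per the file headers the gene length in bases, for 58735 genes. The aligner, counter and genome build: not given in the sources used here. However, the identifiers and coordinates of all 58735 genes equal those of GENCODE 29 on GRCh38. FPKM times gene length came in whole multiples of 1 step per library (tolerance 0.01 fragments), from which fragments were recovered. The scaled totals in the deposited FPKM were proportional to median-of-ratios size factors recomputed from these fragments, so the values already hold a correction between libraries.

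On the scale log2(FPKM + 0.1), every gene averaging 1 FPKM or more was fitted with limma 3.58.1 in R 4.3.3 (lmFit, eBayes with variance trend and robust priors, two-sided), and p-values were adjusted by Benjamini-Hochberg over all 12448 tested genes. The pseudocount understates changes of weakly expressed genes. With 3 against 3 libraries an exact permutation test of a single gene cannot go below p = 0.1, so none is given. For the GC correction, deviations from each gene's mean were smoothed against GC content (longest GENCODE transcript; lowess, span 0.3) and the fitted curve of every library was subtracted, which would also remove a real difference that follows GC content.

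The 10 genes and the lists were chosen with earlier results of these data known. Named from each list were up to 4 called genes with the largest change, or otherwise the 2 tested genes of highest mean FPKM. For the called gene of the 10 with the largest change, the 3 nearest protein-coding genes were named. Other list genes, such as receptors and hydroxylases, are named after their values were seen. Alternatives were other pseudocounts, filters, scalings and variance models, voom on recovered fragments, a replicate block, the GC correction, and leaving out each library. The GC correction without control replicate 1 for single genes and the coding transcript length were added after seeing the data. 1 gene of the hypoxia-inducible factor target list is counted with its list but is not reported here by name.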

Additional observations from a re-analysis of the deposited data

How the results depend on the processing

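The falls of ADM and NRP1 kept direction and side of the threshold under each pseudocount, scaling and variance model, voom and both GC corrections. The same held under each filter, except that NRP1 was not tested at 5 FPKM. Without HYOU1 shRNA replicate 1, 2 or 3 both genes kept direction but did not pass. Those fits called 126, 85 and 49 of all tested genes. Without 1 library each, log2 fold changes ran from -1.05 to -0.93 for ADM, -1.12 to -0.91 for NRP1, 0.37 to 0.60 for VEGFA, -0.15 to 0.52 for VEGFB, 0.25 to 0.48 for VEGFC, 0.015 to 0.22 for ANGPTL4, -0.47 to 0.12 for HIF1A, 0.14 to 0.20 for EPAS1 and 0.030 to 0.11 for ARNT. NRP2 lay under the filter and gave no such value. Control replicate 1 was the library whose absence turned VEGFB to -0.15 and HIF1A to 0.12.

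With the GC correction VEGFA was at 0.37, VEGFB at -0.23 and ANGPTL4 at -0.27, and with the replicate block added at the same values (adjusted p = 0.0269, 0.0497 and 0.167). With the GC correction and without control replicate 1, VEGFA was at 0.37, VEGFB at -0.29, VEGFC at 0.50, ANGPTL4 at -0.087, HIF1A at 0.066 and EPAS1 at 0.15. Quantile normalization put ARNT at -0.0049. The cause was not tested.

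Of the 10 genes, 2 were called. The count was 1 with a filter of 5 FPKM, which leaves NRP1 out, 4 with the GC correction, 4 with the GC correction and replicate block, 6 with the GC correction and without control replicate 1, and 0 to 4 without 1 library each. Over all genes 1526 were called, 938 with a filter of 5 FPKM, 770 with no filter and 940 with the replicate block. The GC correction called 5048, and 4504 with the replicate block added. With the GC correction and without control replicate 1, 6049 of all 12448 tested genes were called, or 48.6%. Leaving out 1 library each gave 49 to 5518. With the replicate block ADM and NRP1 stayed past the threshold (adjusted p = 0.0280 and 0.0404). Deviations from the group means correlated at 0.12, -0.093 and 0.17 between libraries of the same number 1, 2 and 3. Between libraries of different numbers the correlations ran from -0.21 to 0.16. With 3 libraries per group these values cannot settle whether the replicate numbers pair the libraries. VEGFC, with at most 132 fragments, had the fewest behind its value.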
